A study of Mus musculus with 24 samples.

Results

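The ATP-binding cassette (ABC) genes of the mouse liver were described across 24 RNA sequencing libraries from mice given dichloroacetic acid (DCA), a chlorinated organic acid, in their drinking water. The genes were chosen by symbol, as every row of the deposited table in subfamilies Abca to Abcg with a number after the letter, which gave 50 of 15582 genes. Of these 50 genes, 34 reached 0.5 RPKM (read counts normalized to transcript model length and library size) in at least 6 libraries and were tested, and 16 did not. The animals were male B6C3F1 mice, a standard hybrid strain, 4 weeks old, and every library came from frozen liver of mixed lobes after 6 days of treatment. The groups were drinking water with 0 g/L DCA (control) and DCA at 1 g/L, 2 g/L and 3.5 g/L, with 6 libraries each. The labels do not say that each library came from its own mouse, so the p-values measure the spread between these libraries. The study's design asked how the liver transcriptome differed between these doses.

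ABC proteins use the energy of ATP to move lipids, bile salts, sterols, conjugates, metals and drugs across membranes, and a few members have no membrane domain and act on ribosomes. In hepatocytes some sit in the canalicular membrane and secrete into bile, while others face the blood at the basolateral membrane. Further members serve peroxisomes, where they import acyl-CoAs for beta-oxidation, and mitochondria, where they handle haem and iron-sulphur intermediates. Defects of canalicular members cause cholestasis or sterol storage in humans.

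Before the values, some facts on the libraries bear on all of them. Within each title stands a tag of L1, L2 or L3 that the labels leave unexplained. All control libraries had tag L1, all 2 g/L libraries had L2 and all 3.5 g/L libraries had L3, while 1 g/L was split into 3 libraries of L1 and 3 of L2. The tag and the dose therefore cannot be told apart at 3.5 g/L. At 2 g/L a fit with the tag as a term rested on the 1 g/L libraries alone, and its value is given for each member named below whose call it ended. Relative depth lay between 0.951 and 1.13, which with annotated gene lengths came to about 21,800,000 to 26,000,000 reads per library. Hepatocyte markers summed to 24877 to 31425 RPKM in control, 22275 to 27619 at 1 g/L, 17704 to 27281 at 2 g/L and 19331 to 24975 at 3.5 g/L, with 5 of 10 called lower at 2 g/L. At 3.5 g/L 5 of 10 hepatocyte markers were called lower and 1 higher. Kupffer cell markers summed to 107 to 154 RPKM in control, 103 to 127 at 1 g/L, 74.6 to 159 at 2 g/L and 74.2 to 99.4 at 3.5 g/L. Of the 11 Kupffer cell markers tested, 9 were called lower at 3.5 g/L and 0 in either direction at 2 g/L by limma, where 0 had an unadjusted p under 0.05. Erythroid markers summed to 302 to 1016 RPKM in control, 371 to 650.0 at 1 g/L, 233 to 524 at 2 g/L and 299 to 626 at 3.5 g/L, with 6 of 6 called lower at 2 g/L and 4 of 6 at 3.5 g/L. For comparison, 10% of all genes tested were called lower at 2 g/L and 12.9% at 3.5 g/L, where 38.6% were called higher. No marker was at 0 in all libraries, and the part of these markers in the results below was not tested. In whole tissue, fewer cells of a type and less RNA per cell cannot be told apart.

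Most of the ABC signal of control liver came from a few members. In control, Abcb11 had the highest level of the 50 genes, followed by Abcd3 and Abcc2. At 3.5 g/L Abcd3 ranked first, Abcc2 ranked 2 and Abcb11 ranked 3. Abcc3 stood at rank 6 at 3.5 g/L, against rank 13 in control, and Abcg5 stood at rank 8 at 3.5 g/L, against rank 16 in control. In the other direction Abcc6 stood at rank 19 at 3.5 g/L, against rank 9 in control, and Abca8a stood at rank 17 at 3.5 g/L, against rank 8 in control. RPKM is a level per length of gene model, so levels of different genes can be set side by side. By family, 9 of 16 ABCA genes, 6 of 10 ABCB genes, 6 of 10 ABCC genes, 4 of 4 ABCD genes, the single ABCE gene, 3 of 3 ABCF genes and 5 of 6 ABCG genes were past the filter. By place, these were 6 of 8 canalicular, 4 of 6 basolateral, 3 of 3 peroxisomal, 4 of 4 mitochondrial, 5 of 6 lysosomal or endosomal and 4 of 4 soluble members. The other tested members were 1 of 2 potassium channel subunits and 7 of 17 members with no place assigned.

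**Figure D1:**
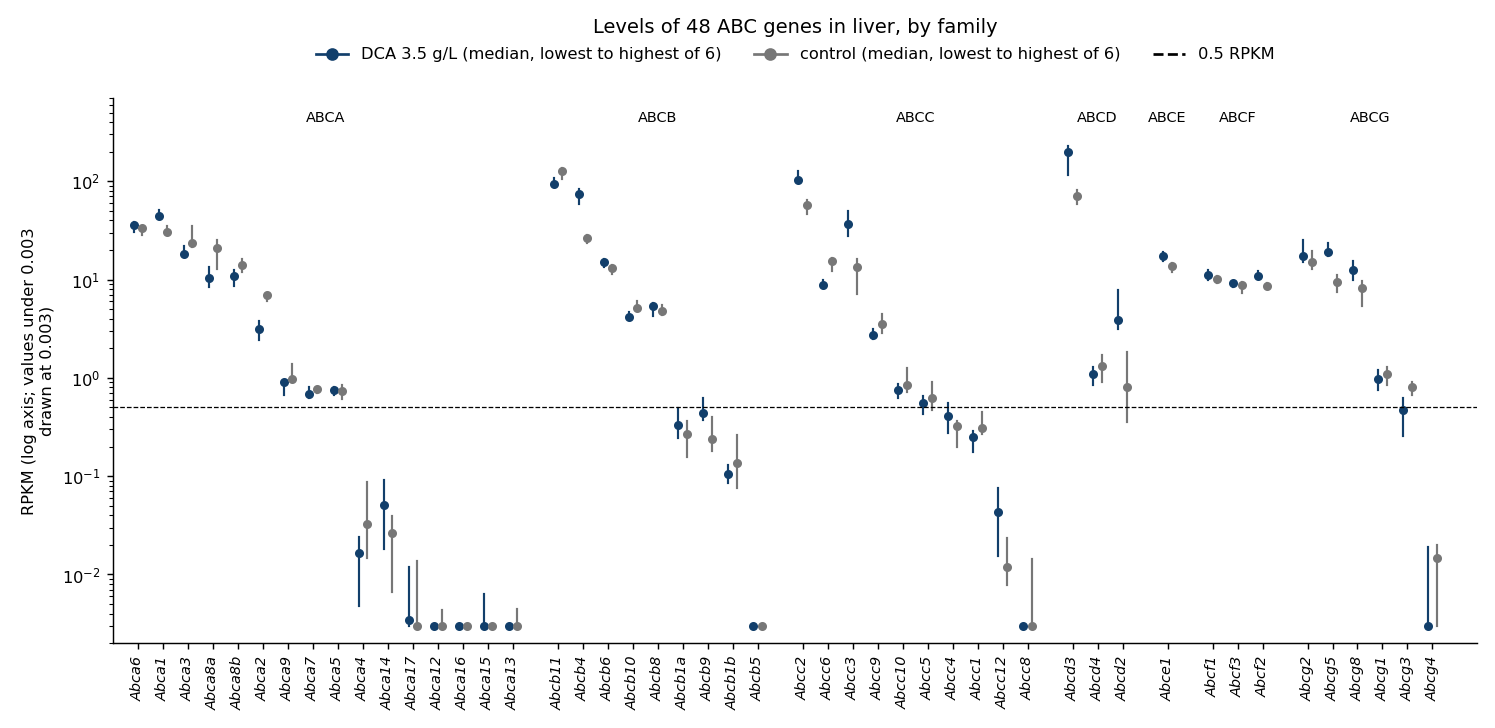
Levels of 48 ABC genes in RPKM on a log axis, by family, with the median and the lowest to highest of 6 libraries at 3.5 g/L DCA and in control; values under 0.003 RPKM are drawn at 0.003. Abcb11, Abcd3 and Abcc2 hold the first 3 ranks in both groups, and most ABCA members outside the tested set lie far under the 0.5 RPKM line.

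At 1 g/L few ABC genes changed, and at 2 and 3.5 g/L most did. Tests were made with limma on log2(RPKM + 1), with Benjamini-Hochberg adjusted p-values under 0.05 over all 6540 genes tested called. A log2 fold below is a difference between group means on that scale, which understates the change of low genes. At 1 g/L, 2 of 34 members were called higher and 3 lower, against 8.35% and 3.03% of all genes tested, so that 5.88% and 8.82% of the members were called; in either direction it was 5, against 11.4% of all genes. At 2 g/L, 14 of 34 were called higher and 8 lower (41.2% and 23.5%), against 41.9% and 10% of all genes tested; the 22 in either direction stand against 51.9%. At 3.5 g/L, 12 were called higher and 10 lower (35.3% and 29.4%), against 38.6% and 12.9% of all genes tested; the 22 in either direction stand against 51.5%. In the values as deposited, the share of members called higher was thus near that of all genes. The share called lower was above that of all genes at each dose, at 1 g/L on 3 members only. Over a linear slope in dose, 13 members were called higher and 8 lower (38.2% and 23.5%), against 38% and 12.6% of all genes tested, and 50.6% of all genes in either direction. The median member fold was −0.05 at 1 g/L, then 0.08 at 2 g/L and 0.05 at 3.5 g/L, against 0.05, 0.12 and 0.10 over all genes tested.

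Between treated doses, most of the difference lay between 1 and 2 g/L. At 2 against 1 g/L, 15 members were called higher and 4 lower (44.1% and 11.8%), against 22.7% and 5.63% of all genes tested, and 28.4% in either direction. At 3.5 against 2 g/L, 3 were called higher and 3 lower (8.82% each way), against 4.79% and 5.54% of all genes tested, and 10.3% in either direction. The first contrast also carried the tag split: with the L2 libraries alone, 6 members were called higher at 2 against 1 g/L (Abca1, Abcb4, Abcc3, Abcd3, Abcg5 and Abcg8) and 2 lower (Abca2 and Abca8a), against 6.6% and 2.4% of all genes tested in that fit.

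The split of higher and lower calls depended on the scaling. The deposited values put the median fold of all genes at 0.118 at 2 g/L, and median-ratio factors put it at −0.001. Under median-ratio factors 8 members were called higher and 14 lower at 2 g/L, against 21.3% and 21.1% of all genes tested under that scaling. At 3.5 g/L it was 11 higher and 16 lower, against 23.5% and 23.3% of all genes, and at 1 g/L 1 higher and 3 lower, against 3.6% and 5.2%. Under quantile normalization the counts were 8 higher and 13 lower at 2 g/L, against 20.8% and 20.0% of all genes. They were 11 and 11 at 3.5 g/L, against 21.9% and 22.1%, and 2 and 3 at 1 g/L, against 5.3% and 4.8%. At 3.5 g/L the member shares were thus above those of all genes in both directions under either scaling. Calls of Abcb6, Abcb8, Abcf1, Abcf2 and Abcg8 at 2 g/L and of Abcb6 at 3.5 g/L ended under both of these scalings.

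**Figure D2:**
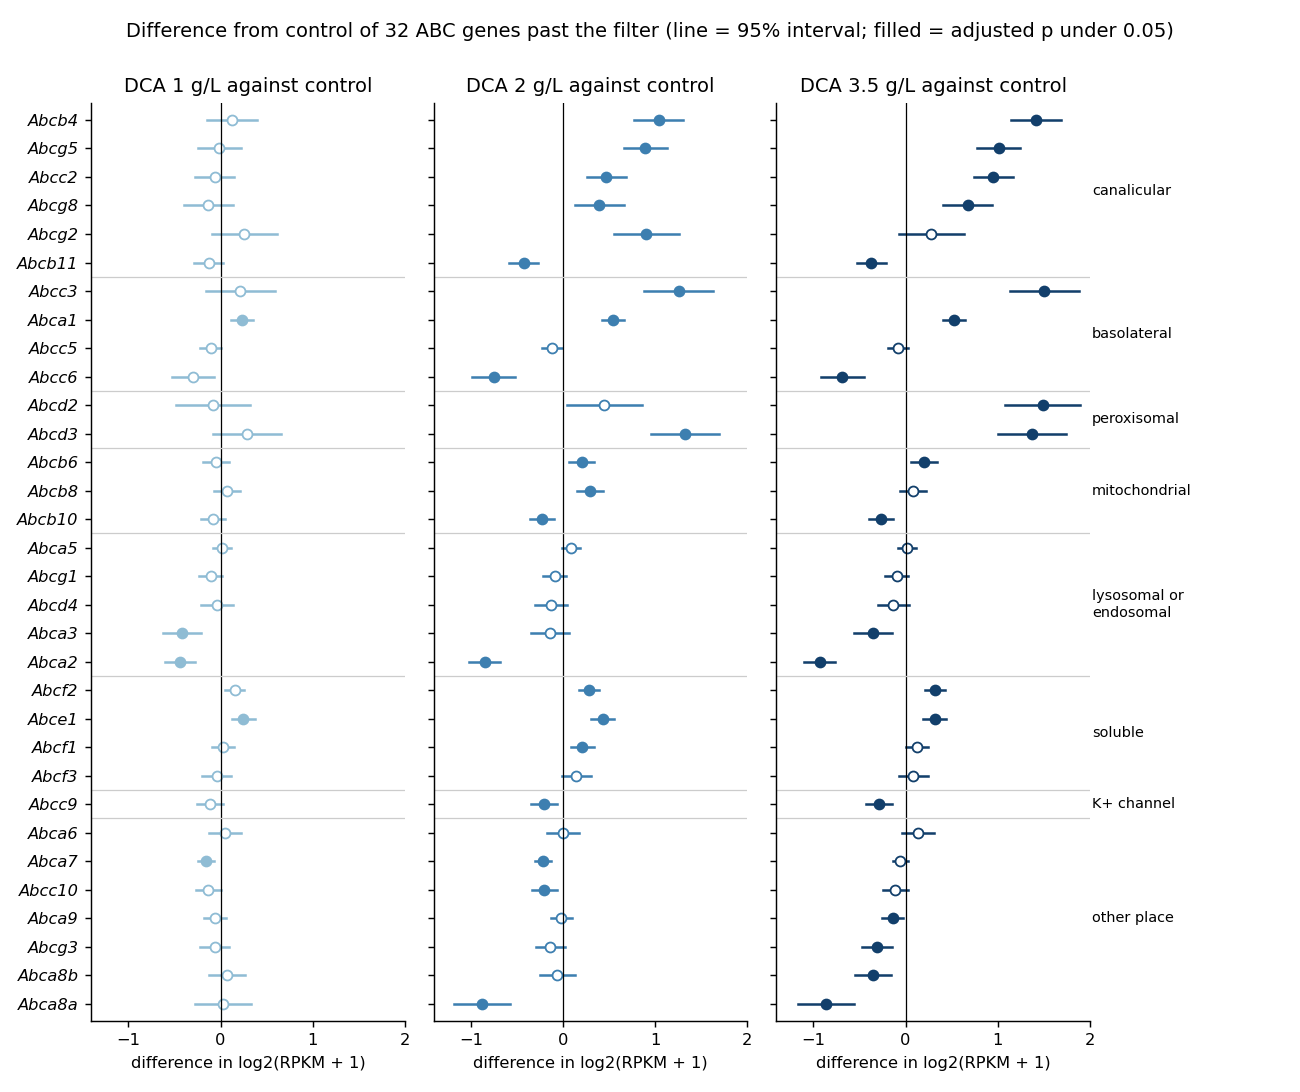
Difference from control in mean log2(RPKM + 1) of 32 ABC genes past the filter at 1, 2 and 3.5 g/L DCA, one panel per dose, grouped by place in the cell; lines are 95% intervals and filled points have an adjusted p under 0.05. The largest positive differences at 3.5 g/L belong to Abcc3, Abcd2, Abcb4 and Abcd3, and the largest negative ones to Abca2, Abca8a and Abcc6.

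Among the canalicular members, the phospholipid exporter Abcb4 and the sterol exporters Abcg5 and Abcg8 rose at 2 and 3.5 g/L while the bile salt exporter Abcb11 fell. For Abcg8 the 2 g/L call ended under both other scalings and with the tag as a term. Of 6 canalicular members tested, 5 were called higher and 1 lower at 2 g/L, and 4 higher and 1 lower at 3.5 g/L. The shares of all genes tested were 41.9% higher and 10% lower at 2 g/L, and 38.6% and 12.9% at 3.5 g/L. At 1 g/L limma called 0 of 6, and 0 had an unadjusted p under 0.05, with folds between −0.13 and 0.26.

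Promoter windows of 5 members are shown because Abcb4, Abcg5, Abcg8 and Abcd3 rose together while Abcb11, in the same membrane as the first 3, fell. Each window, from RefSeq on GRCm38.p6, runs from 250 bases before to 50 bases after the annotated start, 5′ to 3′ on the strand of the gene. Capitals mark AGGTCA, CAAAGTCCA or TATAAA on either strand. The windows are Abcb4 at chr5:8893471-8893770, plus strand, Abcb11 at chr2:69342567-69342866, minus strand, Abcg5 at chr17:84682962-84683261, minus strand, Abcg8 at chr17:84682871-84683170, plus strand, and Abcd3 at chr3:121815253-121815552, minus strand.
Abcb4: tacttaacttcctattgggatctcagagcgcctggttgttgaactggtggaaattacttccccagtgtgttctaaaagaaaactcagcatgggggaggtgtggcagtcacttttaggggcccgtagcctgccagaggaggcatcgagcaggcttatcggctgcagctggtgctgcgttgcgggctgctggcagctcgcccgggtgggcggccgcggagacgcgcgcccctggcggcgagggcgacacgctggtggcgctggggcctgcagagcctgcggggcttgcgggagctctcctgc
Abcb11: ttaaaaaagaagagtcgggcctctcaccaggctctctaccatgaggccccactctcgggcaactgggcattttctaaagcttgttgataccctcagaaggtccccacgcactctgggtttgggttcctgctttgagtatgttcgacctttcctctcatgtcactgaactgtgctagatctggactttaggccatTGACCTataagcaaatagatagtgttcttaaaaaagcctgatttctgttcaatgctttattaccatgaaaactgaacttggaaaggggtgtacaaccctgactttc
Abcg5: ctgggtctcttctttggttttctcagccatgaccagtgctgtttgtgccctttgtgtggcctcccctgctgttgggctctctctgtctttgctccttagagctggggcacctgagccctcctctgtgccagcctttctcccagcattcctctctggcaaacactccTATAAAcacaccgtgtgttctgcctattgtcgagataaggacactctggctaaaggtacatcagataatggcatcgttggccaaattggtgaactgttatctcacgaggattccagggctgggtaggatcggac
Abcg8: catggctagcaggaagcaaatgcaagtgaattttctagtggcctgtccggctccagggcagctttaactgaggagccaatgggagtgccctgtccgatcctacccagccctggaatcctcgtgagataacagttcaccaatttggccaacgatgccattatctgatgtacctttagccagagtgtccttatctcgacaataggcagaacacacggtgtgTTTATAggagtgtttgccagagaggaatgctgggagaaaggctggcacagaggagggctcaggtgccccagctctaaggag
Abcd3: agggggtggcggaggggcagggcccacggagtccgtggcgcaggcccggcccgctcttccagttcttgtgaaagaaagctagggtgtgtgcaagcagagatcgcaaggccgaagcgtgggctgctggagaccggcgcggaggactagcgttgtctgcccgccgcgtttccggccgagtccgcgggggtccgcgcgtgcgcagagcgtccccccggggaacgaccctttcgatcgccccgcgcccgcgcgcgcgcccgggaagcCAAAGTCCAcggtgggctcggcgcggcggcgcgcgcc

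By the RefSeq starts of these windows, Abcg5 and Abcg8 lie head to head, with start sites 110 bases apart, and their windows share 209 bases. GENCODE differs and begins Abcg8 at 84676302, inside Abcg5. For a gene with several RefSeq starts the outermost was shown, except for Abcg8, where the innermost was taken. Of 50 members, 38 matched the table, with 45 windows, among them 25 of the 34 tested members. The GC share was 73.7% in the Abcd3 window, 64.0% in Abcb4, 45.3% in Abcb11 and 52.3% in both Abcg5 and Abcg8, against a median of 52.7% over all 32851 windows of the table. All motifs were searched on both strands. AGGTCA, the core of nuclear receptor elements, was in 7 of 45 member windows (Abcb6, Abcb11, Abcc2, Abcc10 and Abcg2), against 16.3% of all windows. Its spaced repeats AGGTCANAGGTCA, as bound by PPARs, and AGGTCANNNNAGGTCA, as bound by LXRs, contain it and were in 0 of 45, against 0.0396% and 0.0152% of all windows. CAAAGTCCA, an element of HNF4A, was in the Abcd3 window alone of the 45, against 0.475% of all windows. CACGTG, the E-box, was in 6 of 45 (Abca1, Abca8a, Abca8b, Abca15, Abcc4 and Abcf1), against 7.15%. TGACNNNGC, the antioxidant response core, was in 7 of 45 (Abca8b, Abcb1a, Abcc2, Abcc4 and Abcc10), against 12.4%. TGACNNNGC can overlap AGGTCA read on the other strand, as it did in 1 Abcc10 window. TATAAA was in 7 of 45 (Abca1, Abca4, Abcb6, Abcg2, Abcg5 and Abcg8), against 13.6%, and its match upstream of Abcg8 began 31 bases before the start site. The Abcg5 and Abcg8 matches are 1 and the same site in their shared bases, read on opposite strands. All motif counts here are matches of letters and describe no binding.

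Abcb4, which moves phosphatidylcholine into bile, lies on chromosome 5 (8893717 to 8959231, plus strand). It had a median of 26.3 RPKM in control (23.6 to 28.2), 29.1 at 1 g/L (24.7 to 31.2), 58.7 at 2 g/L (35.2 to 72.6) and 74.8 at 3.5 g/L (58.4 to 82.9). All libraries at 2 and 3.5 g/L lay above all control libraries, and those at 1 g/L overlapped control. Abcb4 rose by 1.04 (SE 0.13, adjusted p = 1e-06) at 2 g/L and by 1.41 (SE 0.13, adjusted p = 5.3e-09) at 3.5 g/L on the log2 scale. The 2 against 1 g/L fold was 0.91 (SE 0.13, adjusted p = 1.69e-05), and the call at 2 g/L held with the tag as a term, at 0.95 (SE 0.23, adjusted p = 0.0126). The further difference at 3.5 against 2 g/L was 0.38 (95% interval 0.11 to 0.65, adjusted p = 0.0675), not called as deposited, and 0.40 (adjusted p = 0.0395) under median-ratio factors. It was called without any 1 of the 2 g/L libraries 73, 74 and 75 and without the 3.5 g/L library 98.

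Abcb11, the bile salt export pump, lies on chromosome 2 (69238282 to 69342616, minus strand). Abcb11 stood at a median of 127 RPKM in control (106 to 135), 114 at 1 g/L (102 to 124), 94.9 at 2 g/L (74.7 to 103) and 93.8 at 3.5 g/L (87.7 to 107). The 2 g/L libraries all lay below control, while at 3.5 g/L the highest library reached the lowest of control. Abcb11 fell, with log2 folds of −0.42 (SE 0.08, adjusted p = 8.34e-05) at 2 g/L and −0.37 (SE 0.08, adjusted p = 0.000305) at 3.5 g/L, and of −0.51 (SE 0.14, adjusted p = 0.0215) at 2 g/L with the tag as a term. Within a library, the ratio of Abcb4 to Abcb11 had a median of 0.209 in control (0.178 to 0.242), 0.254 at 1 g/L (0.211 to 0.283), 0.619 at 2 g/L (0.356 to 0.892) and 0.774 at 3.5 g/L (0.544 to 0.943). The phospholipid exporter thus stood closer to the bile salt exporter in every library at 2 and 3.5 g/L than in any control library.

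Abcg5 and Abcg8 code for the 2 subunits of the exporter that sends cholesterol and plant sterols into bile. Abcg5 lies on chromosome 17 (84658234 to 84683011, minus strand) and Abcg8 on chromosome 17 (84676302 to 84700333, plus strand). Abcg5 had a median of 9.47 RPKM in control (7.46 to 11.02), 8.96 at 1 g/L (7.85 to 11.04), 19.04 at 2 g/L (14.01 to 22.8) and 19.03 at 3.5 g/L (17.2 to 23.4). Every library at 2 and 3.5 g/L was above control, and the 1 g/L libraries overlapped control. Abcg5 rose by 0.89 (SE 0.11, adjusted p = 1.18e-06) at 2 g/L and 1.01 (SE 0.11, adjusted p = 9.99e-08) at 3.5 g/L, and by 0.94 (SE 0.21, adjusted p = 0.00799) at 2 g/L with the tag as a term. Abcg8 had a median of 8.13 RPKM in control (5.36 to 9.72), 6.61 at 1 g/L (6.12 to 7.97), 9.46 at 2 g/L (8.4 to 13.5) and 12.4 at 3.5 g/L (9.83 to 15.5). Its 2 g/L libraries overlapped control and its 3.5 g/L libraries lay just above it. Abcg8 rose by 0.39 (SE 0.13, adjusted p = 0.014) at 2 g/L and 0.68 (SE 0.13, adjusted p = 0.00013) at 3.5 g/L. At 2 g/L its call ended with the tag as a term, at 0.43 (SE 0.24, adjusted p = 0.234), and under both other scalings. The ratio of Abcg5 to Abcg8 had a median of 1.27 in control (1.05 to 1.44), 1.38 at 1 g/L (1.13 to 1.64), 1.71 at 2 g/L (1.397 to 2.26) and 1.53 at 3.5 g/L (1.42 to 1.75). These ranges overlapped between neighbouring doses. In GENCODE, unlike by the RefSeq starts above, the genes overlap by 6710 bases of chromosome 17 (84676302 to 84683011) on opposite strands. No source used here says which annotation was counted or whether the counting used strand, so reads could be shared between them.

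Abcc2, which exports bilirubin glucuronides and glutathione conjugates into bile, lies on chromosome 19 (43782192 to 43840740, plus strand). It had a median of 57.98 RPKM in control (46.5 to 64.4), 53.5 at 1 g/L (47.3 to 57.8), 78.5 at 2 g/L (62.2 to 98.7) and 104 at 3.5 g/L (99.1 to 128). The 3.5 g/L libraries lay above every other library, and the 2 g/L libraries overlapped control. Abcc2 rose by 0.47 (SE 0.10, adjusted p = 0.000587) at 2 g/L and 0.95 (SE 0.10, adjusted p = 6.59e-08) at 3.5 g/L, and also between these doses, by 0.48 (SE 0.10, adjusted p = 0.00449). Its 1 g/L libraries differed by tag, with 47.3 to 51.9 RPKM in the 3 of L1 and 55.1 to 57.8 RPKM in the 3 of L2. At 1 g/L the L2 libraries also lay wholly above those of L1 for Abca2, Abca6, Abca7, Abca8a, Abca9, Abcc3 and Abcc9. The Abcc2 call at 2 g/L ended with the tag as a term, at 0.27 (SE 0.18, adjusted p = 0.348).

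Abcg2, an exporter of urate and many drugs, lies on chromosome 6 (58584523 to 58695676, plus strand) and was the canalicular member with a peak at 2 g/L. It had a median of 15.2 RPKM in control (12.7 to 19.6), 18.8 at 1 g/L (15.1 to 21.1), 34.5 at 2 g/L (14.5 to 36.5) and 17.5 at 3.5 g/L (15.2 to 25.5). At 2 g/L 5 of 6 libraries, at 30.8 to 36.5 RPKM, lay above all others, and the remaining one, library 78, stood at 14.5 RPKM within the control range. Abcg2 rose by 0.90 (SE 0.17, adjusted p = 0.000135) at 2 g/L, and without library 78 by 1.10 (SE 0.12, adjusted p = 1.93e-07). With the tag as a term the 2 g/L value was 0.85 (SE 0.30, adjusted p = 0.0674), no longer called. At 3.5 g/L the fold against control was 0.28 (95% interval −0.07 to 0.63, adjusted p = 0.177), and it was called without library 78, at 0.28 (SE 0.12, adjusted p = 0.0478). Against 2 g/L it fell at 3.5 g/L, with a fold of −0.62 (SE 0.17, adjusted p = 0.0216), and of −0.82 (SE 0.12, adjusted p = 0.000258) without library 78. That call ended when only these 2 doses entered the fit, at −0.62 (adjusted p = 0.0866), and without the 2 g/L library 75, the 3.5 g/L library 98 or the 3.5 g/L library 101, with adjusted p of 0.0546, 0.0504 and 0.0524.

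**Figure D3:**
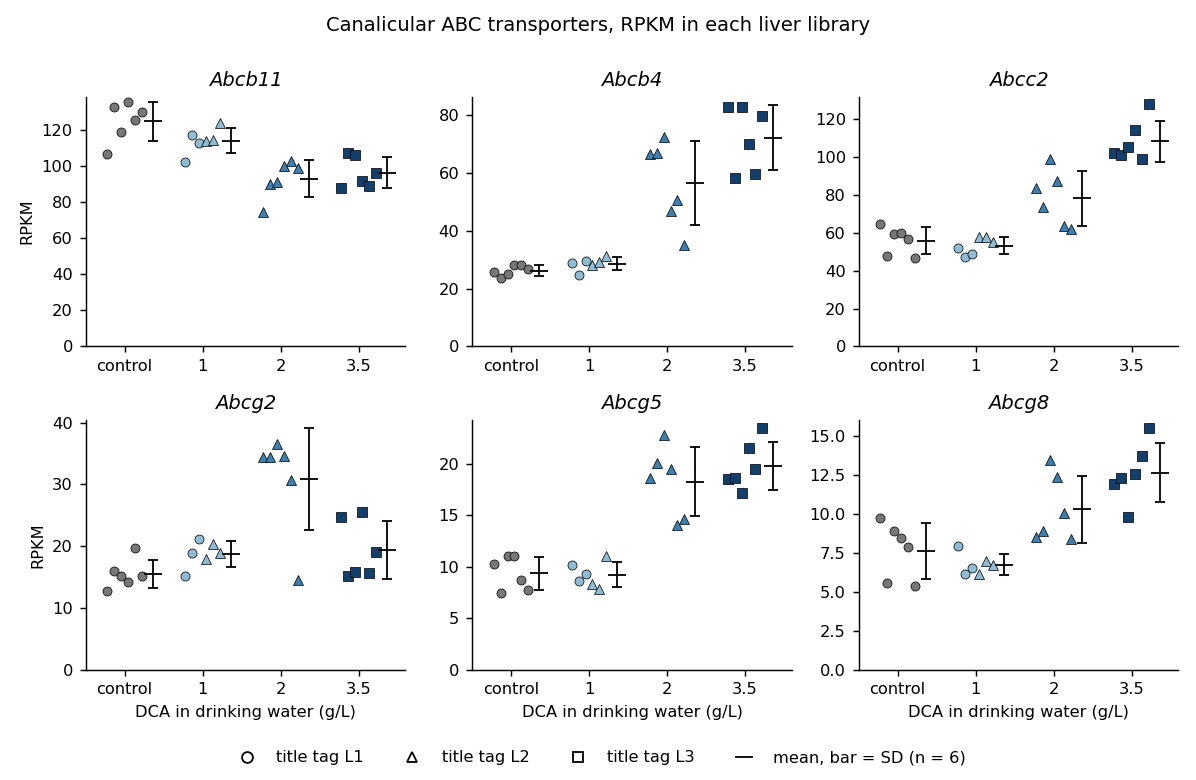
RPKM of the 6 canalicular ABC genes past the filter in each library, by DCA dose in g/L; marker shape gives the title tag, and the line with its bar gives the mean and SD of 6 libraries. Abcb4 and Abcg5 lie above control in every library at 2 and 3.5 g/L, Abcb11 lies below control at 2 g/L, and Abcg2 is high in 5 of 6 libraries at 2 g/L.

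The remaining canalicular members, Abcb1a and Abcb1b, code for the drug exporter P-glycoprotein and were under the filter. Their highest values were 0.499 and 0.265 RPKM. They lie side by side on chromosome 5 and are similar in sequence, so the division of reads between them is uncertain.

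Among the basolateral members, Abcc3 and Abca1 rose and Abcc6 fell at 2 and 3.5 g/L. Of 4 tested, 1 was called higher at 1 g/L, and 2 were called higher and 1 lower at each of 2 and 3.5 g/L. Of all genes tested, 8.35% were called higher at 1 g/L. At 2 g/L 41.9% were called higher and 10% lower, and at 3.5 g/L 38.6% and 12.9%, so these counts mark no trait of the place. Abcc3, which returns glucuronides and bile acids to the blood, lies on chromosome 11 (94343295 to 94392997, minus strand). Abcc3 stood at a median of 13.4 RPKM in control (7.13 to 16.3), 14.8 at 1 g/L (10.7 to 18.1), 30.7 at 2 g/L (20.9 to 42.8) and 36.6 at 3.5 g/L (27.6 to 49.9). All libraries at 2 and 3.5 g/L lay above control. Abcc3 rose by 1.25 (SE 0.18, adjusted p = 5.79e-06) at 2 g/L and 1.51 (SE 0.18, adjusted p = 3.02e-07) at 3.5 g/L, the largest fold on this scale among the 34 members at 3.5 g/L. Its 1 g/L libraries differed by tag, with 10.7 to 13.9 RPKM in L1 and 15.6 to 18.1 RPKM in L2. The 2 g/L call ended with the tag as a term, at 0.83 (SE 0.30, adjusted p = 0.0778), while within L2 alone 2 against 1 g/L was called, at 0.83 (SE 0.18, adjusted p = 0.0218). The ratio of Abcc3 to Abcc2, 2 exporters of glucuronides at opposite membranes, had a median of 0.243 in control (0.146 to 0.296), 0.277 at 1 g/L (0.206 to 0.314), 0.415 at 2 g/L (0.326 to 0.448) and 0.321 at 3.5 g/L (0.278 to 0.488). It exceeded control in every 2 g/L library and overlapped control at 3.5 g/L.

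Abca1, which loads cholesterol and phospholipid onto apolipoprotein A-I, lies on chromosome 4 (53030787 to 53159895, minus strand) and was one of the few members called at 1 g/L. Its median was 30.3 RPKM in control (29.3 to 34.9), 36.7 at 1 g/L (35.1 to 40.6), 44.8 at 2 g/L (43.3 to 51.1) and 44.7 at 3.5 g/L (41.2 to 51.2). The libraries of each treated dose lay above all control libraries. Abca1 rose by 0.23 (SE 0.06, adjusted p = 0.013) at 1 g/L, 0.54 (SE 0.06, adjusted p = 1.32e-07) at 2 g/L and 0.53 (SE 0.06, adjusted p = 7.84e-08) at 3.5 g/L. The 1 g/L call ended under median-ratio factors, at 0.16 (adjusted p = 0.0862), and with the tag as a term, at 0.21 (SE 0.07, adjusted p = 0.155). At 2 g/L it held with the tag as a term, at 0.49 (SE 0.10, adjusted p = 0.00496), and 3.5 against 2 g/L was −0.01 (95% interval −0.13 to 0.11, adjusted p = 0.93). Kupffer cells also express Abca1.

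Abcc6, a liver transporter whose activity releases ATP and guards against ectopic mineralization, lies on chromosome 7 (45967555 to 46030302, minus strand). Abcc6 stood at a median of 15.5 RPKM in control (12.2 to 16.6), 12.05 at 1 g/L (10.9 to 13.7), 8.96 at 2 g/L (6.03 to 11.2) and 8.81 at 3.5 g/L (8.11 to 9.93). The 2 and 3.5 g/L libraries all lay below control. Abcc6 fell, with folds of −0.75 (SE 0.11, adjusted p = 8.97e-06) at 2 g/L and −0.69 (SE 0.11, adjusted p = 1.99e-05) at 3.5 g/L, and of −0.77 (SE 0.22, adjusted p = 0.0274) at 2 g/L with the tag as a term. At 1 g/L the fold was −0.30 (95% interval −0.53 to −0.07, adjusted p = 0.0847). It was called there when only these 2 groups entered the fit, at −0.30 (adjusted p = 0.0245), and without control library 8, at −0.35 (adjusted p = 0.0463). Abcc5, an exporter of cyclic nucleotides, sat near the filter at a median of 0.627 RPKM in control (0.468 to 0.903), 0.5001 at 1 g/L (0.422 to 0.632), 0.504 at 2 g/L (0.452 to 0.589) and 0.5503 at 3.5 g/L (0.432 to 0.656). The groups overlapped. Its folds were −0.12 (95% interval −0.23 to −0.01, adjusted p = 0.0638) at 2 g/L and −0.08 (95% interval −0.19 to 0.02, adjusted p = 0.184) at 3.5 g/L, not called as deposited and called lower under median-ratio factors at both doses. The 2 g/L value was also called without any 1 of control libraries 7 and 8 and 2 g/L library 73. Abcc1 and Abcc4 were under the filter, with highest values of 0.455 and 0.552 RPKM.

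Of the peroxisomal members, Abcd3 rose at 2 and 3.5 g/L and Abcd2 at 3.5 g/L. Abcd3, known as PMP70, which brings branched and dicarboxylic acyl-CoAs and bile acid precursors into the peroxisome, lies on chromosome 3 (121758774 to 121815302, minus strand). Abcd3 stood at a median of 71.4 RPKM in control (58.3 to 81.9), 86.1 at 1 g/L (69.3 to 93.2), 201 at 2 g/L (89.97 to 226) and 200.2 at 3.5 g/L (117 to 231). All libraries at 2 and 3.5 g/L lay above control. Abcd3 rose by 1.33 (SE 0.18, adjusted p = 2.68e-06) at 2 g/L and 1.37 (SE 0.18, adjusted p = 1.08e-06) at 3.5 g/L. At 2 g/L it had 170.5 to 226 RPKM in 5 libraries and 89.97 RPKM in library 78, and without that library the fold was 1.52 (SE 0.14, adjusted p = 1.29e-08). The call held with the tag as a term, at 1.18 (SE 0.29, adjusted p = 0.0135). Its promoter window, shown above, was the most GC-rich of the 5 and held the single CAAAGTCCA match among the member windows. Library 78 was also the lowest at 2 g/L for Ehhadh, the peroxisomal bifunctional enzyme, at 165 RPKM, against 673 to 1559 RPKM in the other 2 g/L libraries. Abcb4, Abcc2, Abcc3, Abcg2 and Abcg8 were also lowest there among the 2 g/L libraries, Abcg5 was not, and Abcd2 was highest there, at 2.93 RPKM, against 1.06 to 1.78 RPKM. These were not the only members at an edge in library 78. Abca1, Abca6, Abcb6, Abce1 and Abcf1 were lowest there too, and Abca2, Abca7, Abca8a, Abca8b and Abcf3 were highest.

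Abcd2, a peroxisomal carrier of very long and polyunsaturated acyl-CoAs, lies on chromosome 15 (91145871 to 91191799, minus strand). Its 3.5 g/L values stood apart from those at 2 g/L, while Abcd3 at 3.5 against 2 g/L was 0.04 (95% interval −0.33 to 0.41, adjusted p = 0.908), not called. The Abcd2 median was 0.807 RPKM in control (0.357 to 1.84), 0.627 at 1 g/L (0.471 to 1.79), 1.52 at 2 g/L (1.06 to 2.93) and 3.89 at 3.5 g/L (3.15 to 7.76). Every 3.5 g/L library lay above every other library, and the 2 g/L libraries overlapped control. Abcd2 rose by 1.49 (SE 0.20, adjusted p = 1.18e-06) at 3.5 g/L, and by 1.04 (SE 0.20, adjusted p = 0.00152) at 3.5 against 2 g/L. At 2 g/L against control it was 0.45 (95% interval 0.04 to 0.85, adjusted p = 0.0586), not called. That value was called with a pseudocount of 0.1, at 0.80 (adjusted p = 0.038), when only these 2 groups entered the fit, and without any 1 of control libraries 5 and 6, 1 g/L library 54, 2 g/L library 77 and 3.5 g/L library 99. With the tag as a term it was −0.0035 (SE 0.30, adjusted p = 0.995).

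**Figure D4:**
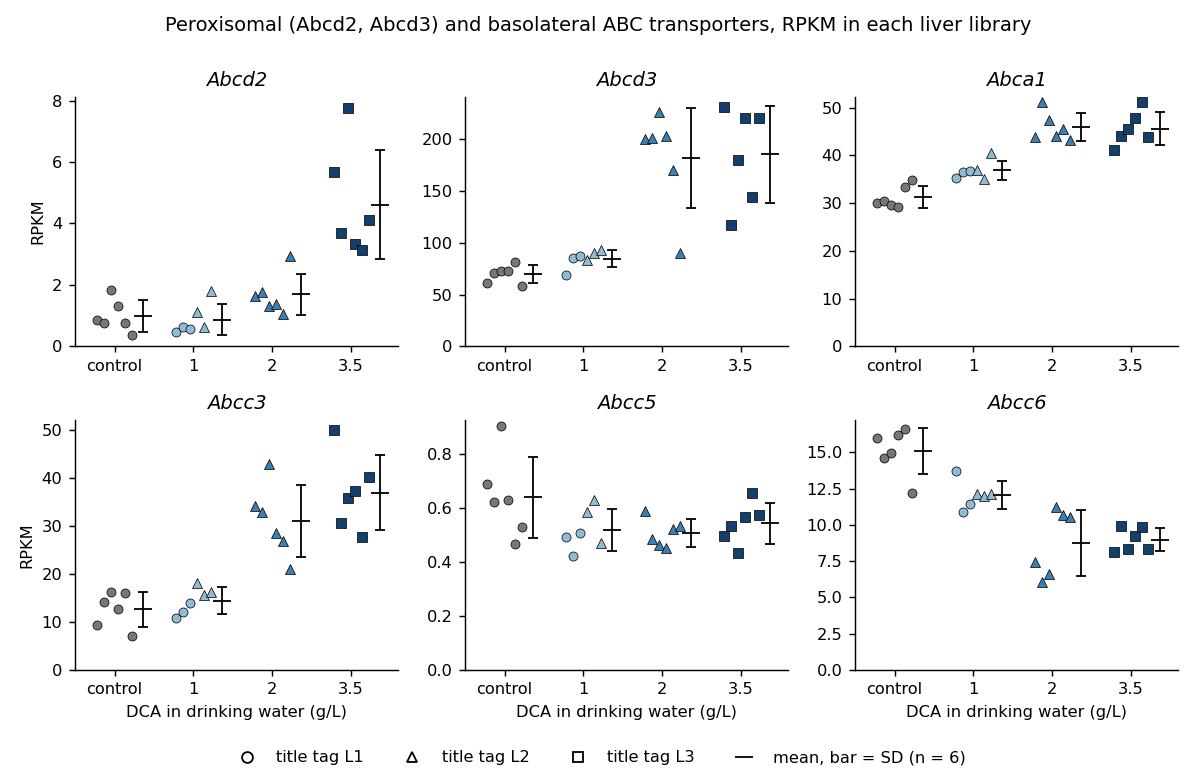
RPKM of the peroxisomal Abcd2 and Abcd3 and of the 4 basolateral ABC genes past the filter in each library, by DCA dose in g/L; marker shape gives the title tag, and the line with its bar gives the mean and SD of 6 libraries. Abcd3, Abca1 and Abcc3 lie above control in every library at 2 and 3.5 g/L, Abcc6 lies below it, and Abcd2 stands highest at 3.5 g/L.

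Summed over all 50 genes, ABC RPKM had a median of 553 in control (515 to 590.2), 561 at 1 g/L (508 to 601), 758 at 2 g/L (575 to 850.4) and 808 at 3.5 g/L (691 to 850.3). The peroxisomal members took a median of 13.2% of that sum in control (11.8% to 14.6%), 16.2% at 1 g/L (14.2% to 16.3%), 26.9% at 2 g/L (16.6% to 27.2%) and 25.5% at 3.5 g/L (17.8% to 28.6%). The canalicular share stayed between 38.1% and 45.1% in every library. Members with no place assigned, mainly Abca6, Abca8a and Abca8b, had a median share of 12.8% in control, 12.7% at 1 g/L, then 7.79% at 2 g/L and 7.59% at 3.5 g/L.

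**Figure D5:**
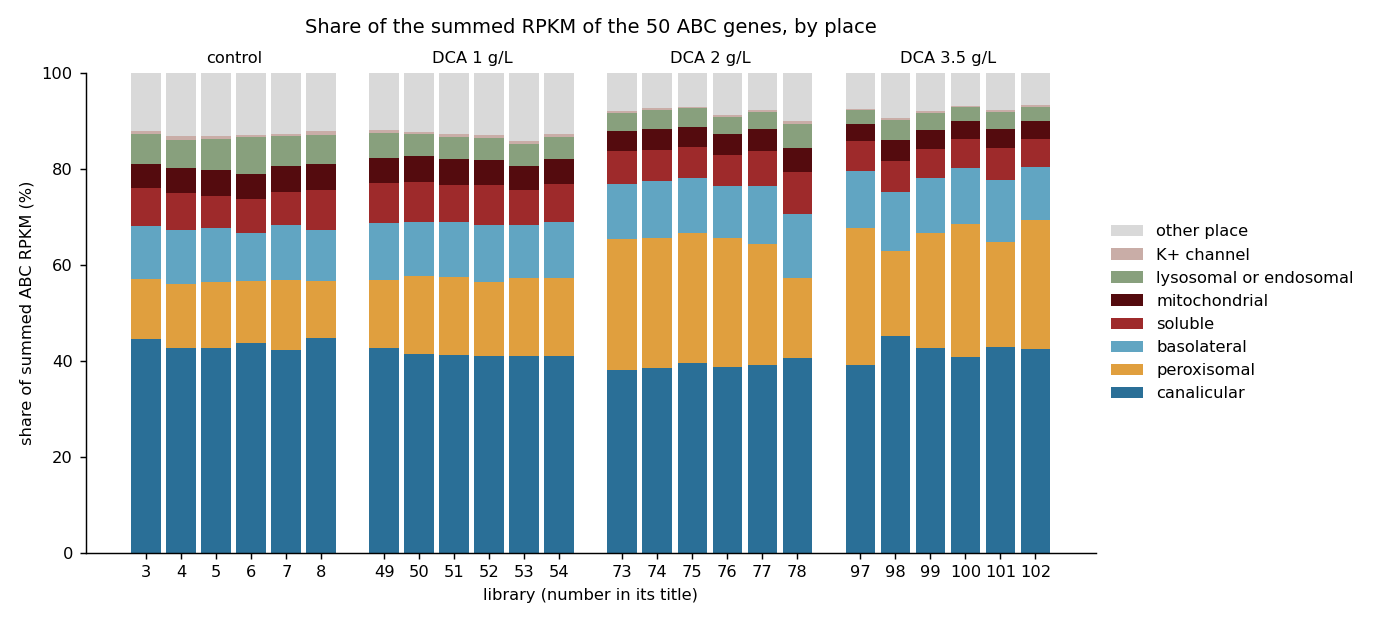
Share of the summed RPKM of the 50 ABC genes taken by each place in the cell, in percent, one bar per library. The peroxisomal share is 16.6% in library 78 and between 25.2% and 27.2% in the other 2 g/L libraries, against 11.8% to 14.6% in control. At 3.5 g/L it is 17.8% in library 98, 21.8% in library 101 and between 24.1% and 28.6% in the others.

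Among the mitochondrial members, Abcb6 and Abcb8 rose at 2 g/L, Abcb10 fell at 2 and 3.5 g/L, and these folds were smaller than those of the canalicular Abcb4. Abcb10, an inner membrane member linked to haem synthesis, had a median of 5.16 RPKM in control (4.83 to 6.003), 4.99 at 1 g/L (4.61 to 5.37), 4.66 at 2 g/L (3.54 to 4.84) and 4.18 at 3.5 g/L (3.94 to 4.66). The 3.5 g/L libraries all lay below control and the 2 g/L libraries nearly so, with the highest of them just reaching the lowest control library. Abcb10 fell, with folds of −0.23 (SE 0.06, adjusted p = 0.00365) at 2 g/L and −0.26 (SE 0.06, adjusted p = 0.00119) at 3.5 g/L, the first no longer called with the tag as a term, at −0.30 (SE 0.12, adjusted p = 0.0958). Abcb6, a porphyrin carrier also found in other membranes, had a median of 13.1 RPKM in control (11.4 to 14.2), 12.2 at 1 g/L (11.8 to 13.97), 15.3 at 2 g/L (12.4 to 17.1) and 15.2 at 3.5 g/L (13.4 to 16.3). The groups overlapped. Abcb6 rose by 0.20 (SE 0.07, adjusted p = 0.0135) at 2 g/L and 0.20 (SE 0.07, adjusted p = 0.0147) at 3.5 g/L as deposited, and both calls ended under median-ratio factors, at 0.04 (adjusted p = 0.594) and 0.06 (adjusted p = 0.415). The 2 g/L call also ended with the tag as a term, at 0.16 (SE 0.12, adjusted p = 0.412).

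Abcb8, an inner membrane member, had a median of 4.78 RPKM in control (4.34 to 5.51), 5.11 at 1 g/L (4.38 to 5.86), 5.99 at 2 g/L (5.47 to 6.68) and 5.36 at 3.5 g/L (4.28 to 5.75). It was highest at 2 g/L, and its groups overlapped. Abcb8 rose at 2 g/L by 0.29 (SE 0.07, adjusted p = 0.000991), was 0.08 (95% interval −0.06 to 0.22, adjusted p = 0.336) at 3.5 g/L, and fell at 3.5 against 2 g/L with a fold of −0.21 (SE 0.07, adjusted p = 0.0464). The first call ended under both other scalings and with the tag as a term, at 0.32 (SE 0.11, adjusted p = 0.0695), and the last with no filter and when only these 2 doses entered the fit, in the second case at −0.21 (adjusted p = 0.0836). It also ended without any 1 of control libraries 3, 4 and 6, 1 g/L libraries 50, 52 and 54, 2 g/L libraries 73, 75, 76, 77 and 78, and 3.5 g/L libraries 97, 98 and 101.

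Among lysosomal and endosomal members, Abca2 fell at every dose. Of 5 tested, 2 were called lower at 1 g/L, then 1 at 2 g/L and 2 at 3.5 g/L, and none higher. Over all genes tested, 3.03%, 10% and 12.9% were called lower at these doses, and 8.35%, 41.9% and 38.6% higher. Abca2, a lipid transporter of late endosomes and lysosomes, had a median of 6.93 RPKM in control (5.99 to 7.35), 4.74 at 1 g/L (4.53 to 5.104), 3.36 at 2 g/L (2.67 to 4.19) and 3.13 at 3.5 g/L (2.45 to 3.76). The libraries of each treated dose all lay below control. Abca2 fell, with folds of −0.44 (SE 0.08, adjusted p = 0.00126) at 1 g/L, −0.85 (SE 0.08, adjusted p = 2.14e-08) at 2 g/L and −0.93 (SE 0.08, adjusted p = 1.74e-09) at 3.5 g/L. With the tag as a term it was −0.49 (SE 0.09, adjusted p = 0.0194) at 1 g/L and −0.94 (SE 0.13, adjusted p = 0.000697) at 2 g/L, called at both. Abca3, a phospholipid transporter of lamellar bodies in lung, was called lower at 1 and 3.5 g/L, with medians of 23.6 RPKM in control, 17.98 at 1 g/L, then 22.7 at 2 g/L and 18.1 at 3.5 g/L. The 1 g/L fold of Abca3 was −0.42 (SE 0.10, adjusted p = 0.00972), and −0.46 (SE 0.13, adjusted p = 0.0788) with the tag as a term, no longer called. Abca5, Abcd4 (the lysosomal exporter of vitamin B12) and Abcg1 (a cholesterol exporter) lay between 0.601 and 1.69 RPKM in all libraries and were not called as deposited. Under median-ratio factors Abcd4 and Abcg1 were called lower at both 2 and 3.5 g/L, and Abca3 at 2 g/L. Abcb9, a lysosomal peptide transporter, was under the filter, at up to 0.622 RPKM.

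The soluble members act in translation. Of 4 tested, 1 was called higher at 1 g/L, then 3 at 2 g/L and 2 at 3.5 g/L, and 0 lower by limma, with 0 lower at an unadjusted p under 0.05. Among all genes tested, 8.35%, 41.9% and 38.6% were called higher at these doses, and 3.03%, 10% and 12.9% lower. Abce1, which splits ribosomes after termination, was the one called at 1 g/L, with medians of 13.8 RPKM in control, 16.4 at 1 g/L, then 18.8 at 2 g/L and 17.3 at 3.5 g/L. Its call at 1 g/L ended with the tag as a term, at 0.21 (SE 0.08, adjusted p = 0.162), and that at 2 g/L held, at 0.36 (SE 0.11, adjusted p = 0.0319). Abcf1, tied to translation initiation, was called at 2 g/L, and Abcf2 at 2 and 3.5 g/L, with medians of 10.1 and 8.59 RPKM in control. At 1 g/L Abcf2 lay at the threshold and was not called as deposited. It was called higher there with either other pseudocount, a filter of 1 RPKM, or no trend, in the last case at 0.15 (adjusted p = 0.0499). The same held without any 1 of control library 8, 1 g/L libraries 51 and 53, 2 g/L libraries 75 and 76, and 3.5 g/L library 100. At 2 g/L Abcf1 was 0.21 (SE 0.06, adjusted p = 0.00437) and Abcf2 0.28 (SE 0.05, adjusted p = 8.37e-05). With the tag as a term these calls ended, at 0.12 (SE 0.10, adjusted p = 0.42) for Abcf1 and 0.27 (SE 0.09, adjusted p = 0.0558) for Abcf2. At 3.5 g/L Abcf1 was not called as deposited. It was called higher there without 3.5 g/L library 98, at 0.15 (adjusted p = 0.0313), or library 101, at 0.15 (adjusted p = 0.0492). Abcf3 had a median of 8.82 RPKM in control and was not called as deposited. Its 2 g/L value was 0.14 (95% interval −0.01 to 0.30, adjusted p = 0.114), and without 2 g/L library 74 it was called higher, at 0.20 (adjusted p = 0.0268). At 2 against 1 g/L Abcf3 was called without 2 g/L library 74 or 1 g/L library 52.

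Of the members with no place assigned, Abca8a changed most. Abca5, Abca6, Abca9, Abca8a and Abca8b lie side by side on chromosome 11. Abca8a had a median of 20.95 RPKM in control (12.7 to 25.1), 20.9 at 1 g/L (16.2 to 22.8), 10.04 at 2 g/L (7.32 to 13.8) and 10.5 at 3.5 g/L (8.47 to 13.3). The highest library at each of 2 and 3.5 g/L lay above the lowest of control, so the groups overlapped at that edge. Abca8a fell, with folds of −0.88 (SE 0.15, adjusted p = 3.55e-05) at 2 g/L and −0.86 (SE 0.15, adjusted p = 3.26e-05) at 3.5 g/L, and of −1.11 (SE 0.26, adjusted p = 0.0108) at 2 g/L with the tag as a term. Its neighbour Abca8b had medians of 14.02 RPKM in control, 13.96 at 1 g/L, then 13.6 at 2 g/L and 10.8 at 3.5 g/L and was called lower at 3.5 g/L, against control and against 2 g/L. At 2 g/L against control Abca8b was not called as deposited. It was called lower there under median-ratio factors, at −0.22 (adjusted p = 0.0385), and under quantile normalization, at −0.23 (adjusted p = 0.0366). The call against 2 g/L ended with no filter, when only these 2 doses entered the fit, at −0.29 (adjusted p = 0.0664), and without any 1 of control libraries 5, 6 and 7, 1 g/L libraries 50, 51 and 52, 2 g/L libraries 73, 74, 75, 76 and 78, and 3.5 g/L libraries 100, 101 and 102. The pair is similar in sequence, so the division of reads between them is uncertain. Abca6 lay between 27.4 and 39.3 RPKM in all libraries and was not called, and Abca9, with medians of 0.9003 RPKM at 3.5 g/L and 0.985 RPKM in control, was called lower at 3.5 g/L. That call ended with no filter, when only these 2 groups entered the fit, at −0.14 (adjusted p = 0.0682), and without any 1 of control libraries 5 and 8 and 3.5 g/L libraries 98, 99 and 102. Abca7, a lipid transporter of phagocytes, was called lower at 1 and 2 g/L and higher at 3.5 against 2 g/L, with medians of 0.778 RPKM in control, 0.593 at 1 g/L, then 0.477 at 2 g/L and 0.686 at 3.5 g/L. The 1 g/L fold of Abca7 was −0.16 (SE 0.04, adjusted p = 0.0166), and −0.19 (SE 0.05, adjusted p = 0.0616) with the tag as a term, no longer called. Its fold at 3.5 against 2 g/L was 0.16 (SE 0.04, adjusted p = 0.0134), and that call ended when only these 2 doses entered the fit, at 0.16 (adjusted p = 0.0677), which left 2 members called higher in that contrast. Abcg3, a member found in rodents, was called lower at 3.5 g/L, with medians of 0.466 RPKM at 3.5 g/L and 0.803 RPKM in control. At 2 g/L Abcg3 was called lower only in alternatives. These were median-ratio factors, at −0.21 (adjusted p = 0.0294), quantile normalization, at −0.18 (adjusted p = 0.0493), and the fit without 2 g/L library 75. Abcc10, an exporter of drugs, was called lower at 2 g/L, with medians of 0.629 RPKM at 2 g/L and 0.837 RPKM in control, a call that ended without control library 3 and, with the tag as a term, at −0.10 (SE 0.12, adjusted p = 0.631). At 1 and 3.5 g/L Abcc10 was not called as deposited. It was called lower at 1 g/L without 1 g/L library 49, at −0.19 (adjusted p = 0.0368). Under median-ratio factors it was called lower at 3.5 g/L, at −0.18 (adjusted p = 0.0483). Abcc9, the sulphonylurea receptor subunit SUR2 of potassium channels, was called lower at 2 and 3.5 g/L, with medians of 2.71 RPKM at 3.5 g/L and 3.54 RPKM in control. Its 2 g/L fold was −0.21 (SE 0.07, adjusted p = 0.015). That call ended when only these 2 groups entered the fit, at −0.21 (adjusted p = 0.055), and with the tag as a term, at −0.30 (SE 0.13, adjusted p = 0.12).

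The filter separated the low members as follows. The members just inside it were Abcc5 with 15 libraries at 0.5 RPKM or more, Abcg3 with 18, Abca7 with 20 and Abcd2 with 22. Just outside were Abcb9 with 2 libraries, Abcc4 with 1 and Abcb1a with 0. Of the other members under it, Abca4, Abca14, Abcc12, Abcg4, Abcc8, Abca17, Abca13, Abca15 and Abca12 had highest values of 0.08697, 0.0921, 0.0758, 0.0198, 0.0142, 0.0139, 0.0133, 0.00635 and 0.00434 RPKM. Abca16 and Abcb5 were listed at 0 in all 24 libraries.

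Genes that work beside the ABC proteins were counted from lists of their own, chosen with earlier results of these data known. The counts here and in the next paragraph stand against the shares of all genes tested. These were 41.9% called higher and 10% lower at 2 g/L, and 38.6% higher and 12.9% lower at 3.5 g/L. Of 18 genes of peroxisomal beta-oxidation, 16 were called higher and 0 lower at 2 g/L, where 0 were lower at an unadjusted p under 0.05, and 16 higher and 1 lower at 3.5 g/L. Ehhadh rose by 5.22 (SE 0.35, adjusted p = 3.9e-11) and the acyl-CoA thioesterase Acot3 by 4.91 (SE 0.32, adjusted p = 2.16e-11) at 3.5 g/L, and the branched-chain oxidase Acox3 was the one called lower, at −0.37 (SE 0.07, adjusted p = 0.000132). The list's median fold was 1.11 at both doses, against 0.12 at 2 g/L and 0.10 at 3.5 g/L over all genes tested. Of 14 genes of bile formation and sterol acceptors, 3 were called higher and 6 lower at 2 g/L, and 3 higher and 5 lower at 3.5 g/L. Cyp7a1, the rate-limiting enzyme of bile acid synthesis, rose by 1.03 (SE 0.32, adjusted p = 0.01) and Apoa2 by 0.74 (SE 0.09, adjusted p = 1.66e-07) at 3.5 g/L. Cyp7b1, the oxysterol hydroxylase, fell, at −2.09 (SE 0.22, adjusted p = 4.86e-08), as did Apoa4, at −1.31 (SE 0.13, adjusted p = 1.97e-08).

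Of 11 sterol and xenobiotic receptors and related factors, 6 were called higher and 1 lower at 2 g/L, and 8 higher and 0 lower at 3.5 g/L, where 0 were lower at an unadjusted p under 0.05 in limma. Nfe2l2, the oxidative stress factor, rose by 1.49 (SE 0.12, adjusted p = 6.39e-10) and Nr1h4, the bile acid receptor FXR, by 0.96 (SE 0.09, adjusted p = 1.02e-08) at 3.5 g/L. Of 22 genes of mitochondrial iron, haem and iron-sulphur handling, 16 were called higher at 2 g/L and 15 at 3.5 g/L. Cpox, an enzyme of haem synthesis, rose at 3.5 g/L by 0.88 (SE 0.12, adjusted p = 1.09e-06). Alas1, the first enzyme of that path, was 0.77 (SE 0.50, adjusted p = 0.206) at 3.5 g/L, not called. None of the 22 was called lower at either dose by limma, and 0 had an unadjusted p under 0.05 in that direction. Of 15 genes of translation termination and ribosome recycling, 11 were called higher at 2 g/L and 10 at 3.5 g/L, among them the release factor Etf1, at 0.64 (SE 0.07, adjusted p = 3.74e-08), and the rescue factor Hbs1l, at 0.59 (SE 0.05, adjusted p = 3.12e-09). None of the 15 was called lower by limma, and at an unadjusted p under 0.05 there were 0 lower at 2 g/L and 1 at 3.5 g/L. Of other cell type markers, 3 of 11 stellate cell markers were called higher at 2 g/L and 1 at 3.5 g/L, and 1 of 9 sinusoidal endothelial markers was called lower at each of these doses. Limma called 0 of the 2 tested cholangiocyte markers at any dose, with 0 at an unadjusted p under 0.05.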

How the data were processed

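Per the labels' protocols, RNA from about 20 mg of frozen mixed-lobe liver was made into stranded total RNA libraries after removal of ribosomal RNA. CASAVA, STAR 2.4, Partek and the mm10 build appear in the submitters' processing notes. The annotation, and whether counting used strand, were not given in the sources used here. The authors deposited 1 table of RPKM per gene and library, in which a zero is written as 1e-04. Its 15596 lines gave 15582 genes once 1 truncated line and 13 with date-like symbols were removed; genes after the last symbol of the table were not analysed here, and every column was used.

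The 6540 genes reaching 0.5 RPKM in 6 or more libraries were fitted as log2(RPKM + 1) with limma 3.58.1 in R 4.3.3 (trend, 1 mean per dose, all 24 libraries, two-sided), and p-values were adjusted by Benjamini-Hochberg over all 6540, with 0.05 as the threshold and intervals at 95%. The fit was first tested on simulated data. Alternatives were pseudocounts of 0.1 and 0.5, a filter of 1 RPKM or none, no trend, median-ratio factors, quantile normalization, the title tag, only the compared doses, and each library left out. Full values are given for canalicular, basolateral, peroxisomal and mitochondrial members, and for others called with a log2 fold of at least 0.5 in size at 2 or 3.5 g/L. Members, places and lists were chosen with earlier results of these data known. Counts and sums cover all members, but 2 members are not reported here singly.

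Depth was read from the step of 1 read in low RPKM values, within 0.05 reads, and gave a median of 23,000,000 reads (interquartile range 16,800,000 to 27,500,000 over 823 genes). Whole reads were not recovered for most members, so no count test was run. Gene positions are from GENCODE on GRCm38, and promoter windows are from RefSeq on GRCm38.p6.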

Additional observations from a re-analysis of the deposited data

Results flagged for a closer look

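Of 136 groups of 6 libraries (34 genes at 4 doses), 6 held a library whose gap to its nearest neighbour exceeded Dixon's 95% critical share of the group's range, where chance alone gives about 6.8. In the 2 g/L library 78, Abcd3 stood at 89.97 RPKM, against 170.5 to 226 RPKM in the other 2 g/L libraries, and Abcg2 stood at 14.5 RPKM, against 30.8 to 36.5 RPKM. In the 1 g/L library 49, Abcd3 stood at 69.3 RPKM, against 83.7 to 93.2 RPKM in the others, and Abcc10 at 1.10 RPKM, against 0.636 to 0.673 RPKM. Abca1 reached 40.6 RPKM in the 1 g/L library 54, against 35.1 to 37.0 RPKM in the others. Abca3 reached 35.2 RPKM in control library 6, against 21.5 to 24.99 RPKM in the others.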

How the results depend on the processing

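No paired analysis was possible because the doses share no replicate number. No called fold changed sign under any alternative run. Counts are of the 34 members and name limma's calls. At 1 g/L the higher count of 2 was 1 under median-ratio factors and 0 with the title tag as a term or with L1 libraries alone (3 at an unadjusted p under 0.05 in each), and the lower count of 3 was 1 with either tag alternative. At 2 g/L the higher count of 14 was 8 under median-ratio factors, 8 under quantile normalization and 5 with the tag as a term, and the lower count of 8 was 14, 13 and 5. Calls over all genes tested also dropped with the tag as a term, to 9.5% higher and 3.7% lower at 2 g/L. At 1 g/L these shares were 0.6% and 0.8% with the tag as a term, and 0.2% and 0.6% with L1 libraries alone. At 3.5 g/L the lower count of 10 was 16 under median-ratio factors, and for the slope the lower count of 8 was 13. At 2 against 1 g/L the higher count of 15 was 9 under either scaling and 6 within L2, and the lower count of 4 was 2 within L2, a restriction chosen after seeing the data. At 3.5 against 2 g/L the lower count of 3 was 1 with no filter and 0 with only these doses in the fit (6 at an unadjusted p under 0.05). With each library left out in turn, the higher and lower counts ranged from 2 to 3 and 3 to 4 at 1 g/L, 14 to 16 and 7 to 9 at 2 g/L, 12 to 13 and 9 to 10 at 3.5 g/L, 11 to 16 and 4 to 5 at 2 against 1 g/L, 3 to 4 and 0 to 3 at 3.5 against 2 g/L, and 12 to 13 and 8 to 9 for the slope. The lower count at 3.5 against 2 g/L was 1 without control library 6, 1 g/L library 50 or 52, 2 g/L library 73, 76 or 78, or 3.5 g/L library 98, and 0 without 2 g/L library 75 (3 at an unadjusted p under 0.05) or 3.5 g/L library 101 (5). For these changes the cause was not tested. Of single folds with 1 library left out, 3991 kept their side of the threshold, 57 lost a call and 32 gained one. Depth limits the members near 0.5 RPKM, and the tag cannot be told apart from dose at 3.5 g/L.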
